A study of Mus musculus with 8 samples.

Results

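Pou3f1, Pou3f2, Pou3f3 and Pou3f4 are the class III POU genes of the mouse, and all 4 have a row among the 22558 genes of the deposited FPKM table. They were taken by name, and the Oct6 peaks around their start sites were read from the deposited peak list. The libraries came from mouse R1 and R1/E embryonic stem cells, kept on feeder cells and then grown as embryoid bodies, which are floating aggregates, by a protocol given as serum-free and neural although the sample titles carry the prefix fbs. There were 6 RNA libraries: 1 control and 1 in which doxycycline induced overexpression of Oct6, the protein of Pou3f1, at each of days 2, 4 and 6. Oct6 was also precipitated from the chromatin of overexpressing cells at day 4, as 1 ChIP library beside 1 input library. A treatment text shared by all libraries mentions doxycycline for 6 days with no dose, and only the titles of the induced libraries carry the drug's name. It is not stated whether the control cells were given the drug or carried the empty system, which of the R1 and R1/E lines made which library, or whether the inducible line is 1 clone. Doxycycline, the line and Oct6 therefore cannot be told apart as sources of a difference between the arms.

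POU factors bind DNA through a POU-specific domain and a POU homeodomain joined by a linker, and the class III members recognise the octamer motif and related dimer sites. Oct6 (Pou3f1) marks the epiblast of the early embryo and later serves in neural precursors and in myelinating Schwann cells. Brn2 (Pou3f2) and Brn1 (Pou3f3) act in cortical and hypothalamic neurons, and Brn4 (Pou3f4) acts in the developing inner ear and forebrain. Class III factors often bind beside SOX proteins, as at the enhancer of Nes, the gene of the neural filament nestin.

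In the GENCODE annotation of NCBIM37, the assembly behind mm9, each member is a gene of 1 exon. Pou3f1 (ENSMUSG00000078236.3) lies on chromosome 4 from 124334896 to 124337899 on the plus strand, and Pou3f2 (ENSMUSG00000052621.2) on the same chromosome from 22413791 to 22415480 on the minus strand. Pou3f3 (ENSMUSG00000045515.2) lies on chromosome 1 from 42753991 to 42757052 and Pou3f4 (ENSMUSG00000056854.3) on chromosome X from 108009729 to 108010910, both on the plus strand. The annotated start of Pou3f3 is its start codon, so start sites of Pou3f2, Pou3f3 and Pou3f4 were taken from RefSeq upstream sequences, each of which matched NCBIM37 at 1 place. They stand at 22415513, 42752613 and 108009718. Pou3f1 kept its GENCODE start at 124334896.

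The 90 bases of coding sequence in which the members are most alike are shown because they bear on whether reads of 1 member could be counted for another. They run 5′ to 3′ along each coding strand, and capitals mark the 17 positions at which the 4 genes are not all the same.
Pou3f1, chr4:124335775-124335864: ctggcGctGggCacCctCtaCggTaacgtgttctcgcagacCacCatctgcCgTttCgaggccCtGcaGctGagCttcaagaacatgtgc
Pou3f2, chr4:22414307-22414396, minus strand: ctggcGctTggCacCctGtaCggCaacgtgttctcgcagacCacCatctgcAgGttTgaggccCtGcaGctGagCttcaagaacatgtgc
Pou3f3, chr1:42755014-42755103: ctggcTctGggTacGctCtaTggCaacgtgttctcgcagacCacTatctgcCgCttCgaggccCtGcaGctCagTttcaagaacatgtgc
Pou3f4, chrX:108010452-108010541: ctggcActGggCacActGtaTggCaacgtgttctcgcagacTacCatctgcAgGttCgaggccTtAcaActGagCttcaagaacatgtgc
Even here, pairs of members differed at 6 bases (Pou3f1 and Pou3f2) to 13 bases (Pou3f3 and Pou3f4). Identity over the 480 aligned bases without a gap around this window was between 78.5% and 85.0%, and outside that block between 43.3% and 62.5%. The longest run that any pair shared exactly was 38 bases, between Pou3f1 and Pou3f2. Of all 36-base words of Pou3f1, 0.101% occurred in another member, and of those of Pou3f2 0.181%. Pou3f3 and Pou3f4 shared no 36-base word with another member, and no pair of members shared a word of 50 bases. Outside the class, 1.99% of the 36-base words of Pou3f2 occurred in other coding transcripts, against none for the remaining members. The sources used here do not give the read length.

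Pou3f1 is the induced gene, so its level checks the labels. It stood at 64.3, 10.1 and 4.76 FPKM in the control libraries of days 2, 4 and 6, and at 312, 222 and 86.8 FPKM in the induced ones. The lowest induced value lay above the highest control value, although by less than any same-day difference. The values cannot separate transcripts of a transgene from those of the endogenous gene. Pou3f1 ranked 165th of 12586 expressed genes by its log2 difference at day 2, 6th of 12678 at day 4 and 4th of 12820 at day 6, so that it was not the leading gene on any day.

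In control cells Pou3f1 went from the 1183rd most abundant gene of the table at day 2 to the 6322nd at day 4 and the 9141st at day 6. The level was 13.5-fold lower at day 6 than at day 2, and most of that difference lay between day 2 and day 4, where it was 6.36-fold. By the 2-fold rule on log2(FPKM + 1), 4.65% of expressed genes were lower in control at day 4 than at day 2, and 6.73% at day 6. In induced cells the level was also lower at later days, by 1.4-fold from day 2 to day 4 and 2.56-fold from day 4 to day 6. From day 2 to day 6 its induced level was 3.59-fold lower, and 5.35% of expressed genes were at least 2-fold lower over that span. This course has no replicate. Against Pou5f1, the gene of the class V factor Oct4 of pluripotent cells, the ratio of Pou3f1 FPKM was 0.0723, 0.0204 and 0.0349 in control at days 2, 4 and 6, and 0.715, 0.50 and 0.627 in induced cells.

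**Figure D1:**
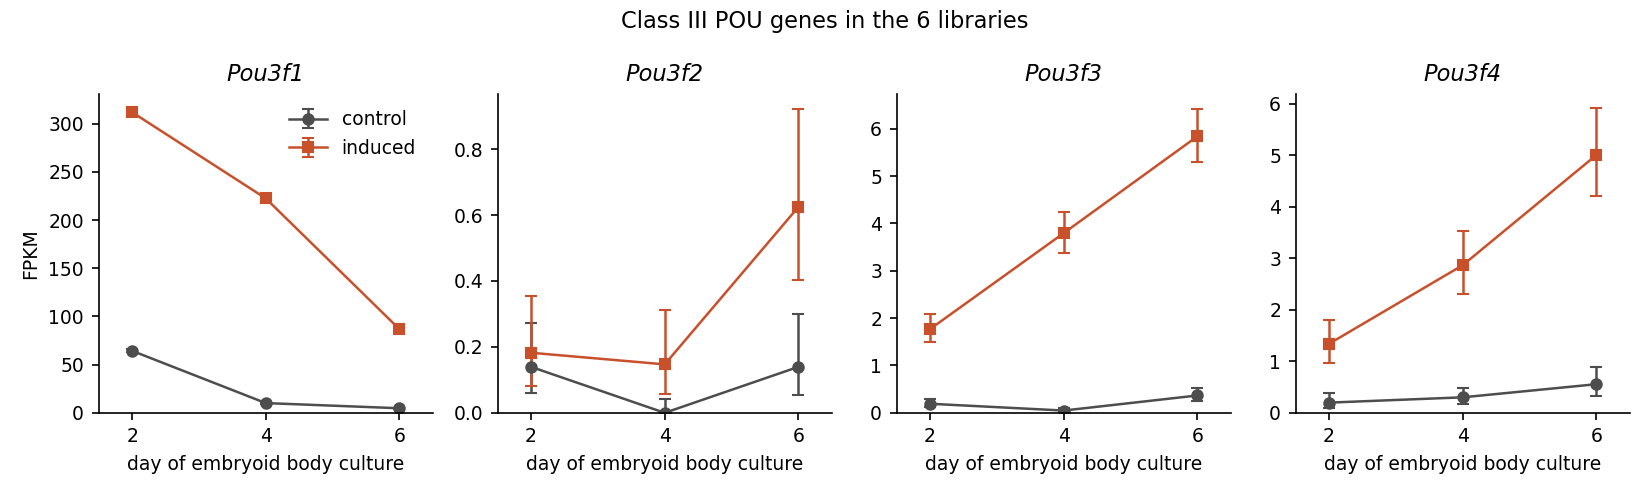
FPKM of each class III POU gene (vertical axis, from 0 and scaled per panel) by day of culture, with circles for the control and squares for the induced library. Bars are 95% Poisson intervals on estimated fragment numbers and cover counting error only. Pou3f1 is lower at later days in both arms, while Pou3f3 and Pou3f4 reach 5.84 and 5.0 FPKM in the induced library of day 6.

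Pou3f3, the gene of Brn1, stood at 0.192, 0.0482 and 0.367 FPKM in control cells at days 2, 4 and 6. In induced cells it stood at 1.77, 3.8 and 5.84 FPKM. The arms did not overlap, and only the induced values went up with each day. On the FPKM scale the induced library was 9.23-fold higher at day 2, 78.7-fold at day 4 and 15.9-fold at day 6, where the day 4 ratio rests on an estimated 7.58 fragments in control. On the log2(FPKM + 1) scale, which understates changes of low genes, the differences were 1.22, 2.19 and 2.32.

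Pou3f4, the gene of Brn4, followed nearly the same course. It stood at 0.198, 0.301 and 0.555 FPKM in control and at 1.34, 2.86 and 5.0 FPKM in induced cells. The control values rest on an estimated 8.03, 18.2 and 17.5 fragments. Again the arms did not overlap, and here both went up with each day. The induced library was 6.76-fold, 9.52-fold and 9.01-fold higher in FPKM, or 0.97, 1.57 and 1.95 higher on the log2(FPKM + 1) scale. The day 2 difference missed the 2-fold size on that scale, but passed it with a smaller pseudocount (1.4 with 0.5 and 2.27 with 0.1). From day 2 to day 6 the induced level was 3.74-fold higher for Pou3f4 and 3.3-fold higher for Pou3f3, and 7.22% of expressed genes were at least 2-fold higher over that span. In control cells neither reached 1 FPKM, while 17.2% of expressed genes were at least 2-fold higher.

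Pou3f2, the gene of Brn2, was below 1 FPKM in every library and so was left out of the tests. It stood at 0.139 FPKM in control at day 2, was listed at 0 at day 4 and stood at 0.139 at day 6. In induced cells the values were 0.182, 0.147 and 0.624 FPKM. Its induced day 6 value, an estimated 24.9 fragments, had a 95% Poisson interval of 0.404 to 0.923 FPKM, above that of control day 6 (0.0526 to 0.298). At day 2 the intervals of the arms overlapped, and the difference of 0.05 on the log2 scale turned to -0.039 after quantile normalisation. At days 4 and 6 the differences of 0.20 and 0.51 became 1.3 and 1.6 with a pseudocount of 0.1, past the 2-fold size at levels under 1 FPKM. At control day 4, 3 fragments would have been worth 0.0346 FPKM. These intervals take the GENCODE length of each gene and an estimated depth, and cover counting error only. RefSeq holds longer models of Pou3f2, Pou3f3 and Pou3f4, with which the fragment numbers would be higher.

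Pou3f1, Pou3f3 and Pou3f4 reached 1 FPKM in at least 1 library, and Pou3f2 did not. At day 2, 2 of the 4 members were at least 2-fold higher in induced cells, and 9.72% of expressed genes were. At day 4 and at day 6, 3 of the 4 were, against 6.09% and 3.37% of expressed genes. These counts include Pou3f1, the induced gene itself, and the 4 include Pou3f2, which the shares of expressed genes leave out. Pou3f3 and Pou3f4 were under 1 FPKM in every control library, so they counted as expressed only through the induced arm. The counts therefore describe the members and do not test the class. None of the members was 2-fold lower on any day, as 1.83%, 2.11% and 2.1% of expressed genes were. Pou3f1 and Pou3f3 were 2-fold higher on all 3 days, as 1.03% of expressed genes were. Every induced library stood above every control library for Pou3f1, Pou3f3 and Pou3f4, and for 12.6% of the genes expressed in any library. The same order held for Pou3f2, but its lowest induced value (0.147 FPKM) and highest control value (0.139 FPKM) lay closer than the worth of 1 estimated fragment. The median difference over expressed genes was 0.17, 0.10 and 0.06 on the 3 days.

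**Figure D2:**
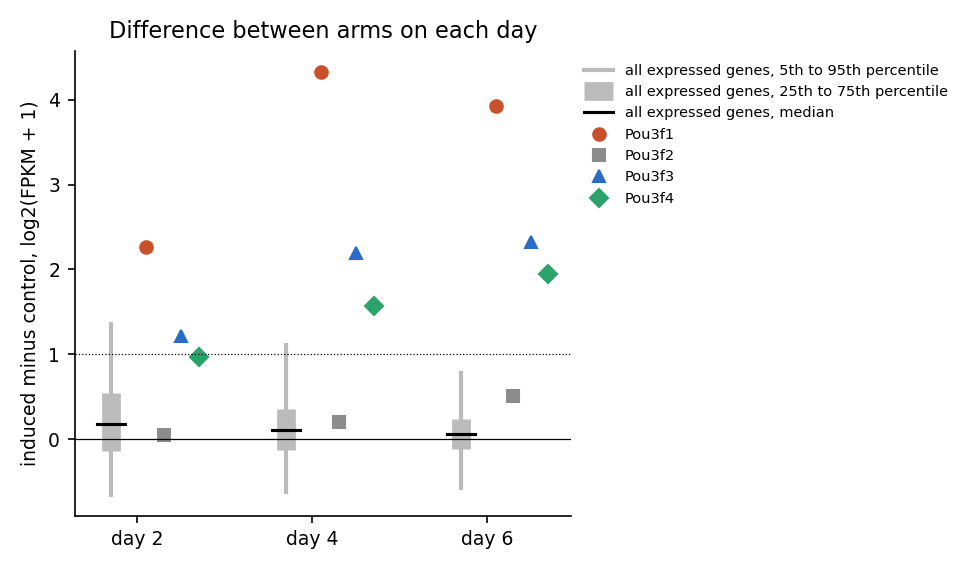
Induced minus control difference of log2(FPKM + 1) on each day for the 4 members, beside all expressed genes (thick grey bars from the 25th to the 75th percentile, thin ones from the 5th to the 95th, and a black median). The dotted line marks a 2-fold difference, and Pou3f1, Pou3f3 and Pou3f4 lie above the thick grey bar on each day, while Pou3f2 stays under the dotted line. At day 2, Pou3f3 (1.22) and Pou3f4 (0.97) lie below the 95th percentile of 1.36.

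With 1 library per arm and day there is no test within a day. Over the 3 days, limma with day as a block gave a mean difference of 3.51 (SE 0.40) for Pou3f1, 1.91 (SE 0.28) for Pou3f3 and 1.49 (SE 0.25) for Pou3f4, on the log2(FPKM + 1) scale. None of the 3 passed the threshold of 0.05 after Benjamini-Hochberg adjustment over all 13661 genes tested with limma, with adjusted p of 0.0885, 0.0963 and 0.111. Their unadjusted limma p were 0.000297, 0.000854 and 0.00158, all under 0.05, as for 16.3% of genes in the higher direction. Only 2 genes passed limma as higher after adjustment, or 0.0146%, and 1 passed as lower. The fit has 2 residual degrees of freedom, and its residual is the spread of the difference between days, not between repeated cultures. The SE and p also draw on the variance of all genes, through the eBayes step of limma, and not on a gene's own spread alone. The SD of the difference over the 3 days was 1.10 for Pou3f1, 0.61 for Pou3f3 and 0.50 for Pou3f4. With a pseudocount of 0.1 the limma estimates became 3.63, 3.69 and 2.71 for Pou3f1, Pou3f3 and Pou3f4, so that the order of Pou3f1 and Pou3f3 depends on it. A limma fit of the day trend gave a slope that was larger in the induced arm by 0.84 (SE 0.35) per 2 days for Pou3f1, by 0.55 (SE 0.23) for Pou3f3 and by 0.49 (SE 0.21) for Pou3f4. For Pou3f1, lower at later days in both arms, a larger slope means a smaller fall. The unadjusted limma p of that slope difference were 0.0613, 0.0627 and 0.0620. The adjusted p was 0.666 for each, and 0.0% of all genes passed it. In limma, 230 genes had an unadjusted p under 0.05 with a larger and 822 with a smaller slope in the induced arm. With a pseudocount of 0.1 the members' slope differences became 0.94 (SE 0.35), 0.50 (SE 0.62) and 0.34 (SE 0.38).

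By level per transcript length, Pou3f1 came first in all 6 libraries. In induced cells Pou3f3 stood next, 1.32-fold, 1.33-fold and 1.17-fold above Pou3f4 at days 2, 4 and 6, and Pou3f2 last. The 95% counting intervals of Pou3f3 and Pou3f4 overlapped on all 3 days. In control cells Pou3f4 stood above Pou3f3 at each day, and their intervals overlapped at days 2 and 6 and not at day 4. Pou3f1 made up 99.2%, 96.7% and 81.8% of the summed class III FPKM in control at days 2, 4 and 6, and 99.0%, 97.0% and 88.3% in induced cells. The sum of the other 3 genes was 0.529, 0.349 and 1.06 FPKM in control and 3.29, 6.81 and 11.5 FPKM in induced cells. The sources used here do not give the transcript lengths behind the values, and a longer gene model would lower the FPKM of a gene.

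Over the 6 libraries the log2 values of Pou3f3 and Pou3f4 had a Pearson r of 0.99. Pou3f1 had an r of 0.66 with Pou3f3 and 0.56 with Pou3f4. Pou3f4 had an SD below 1 over the libraries, so it was not among the genes ranked against Pou3f3. Of the 683 other genes with an SD of at least 1 over the libraries, Chrdl1, a secreted BMP antagonist, was most like Pou3f3 (r = 0.99). It was followed by 2610017I09Rik, the Pantr1 transcript beside Pou3f3 (r = 0.99), Mtap2, a neuronal microtubule protein (r = 0.97), Rgs2, a regulator of G protein signalling (r = 0.97), and Nkain4, an interactor of the sodium pump (r = 0.97). For Pou3f4 the nearest were Chrdl1 (r = 0.99), Pou3f3 itself, Dcx, a microtubule protein of migrating neurons (r = 0.98), Fabp7, the fatty acid carrier of radial glial cells (r = 0.98), and Rgs2 (r = 0.98). Chrdl1 stood at 0.428, 0.292 and 0.751 FPKM in control and 1.48, 4.01 and 6.26 in induced cells at days 2, 4 and 6. For Pou3f1 the nearest were Mylpf, a skeletal muscle myosin light chain (r = 0.96), Nr5a2, a nuclear receptor of pluripotent cells (r = 0.96), Cpt1a, the mitochondrial carnitine palmitoyltransferase (r = 0.96), Gm1564 (r = 0.95) and Gfra1, a GDNF receptor (r = 0.95). Mylpf stood at 24.3, 4.25 and 5.72 FPKM in control and 61.8, 46.0 and 17.8 in induced cells. These correlations describe 6 libraries that share arm and day, and carry no test.

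Markers of several cell types differed between the arms as well. Their counts stand beside 9.72%, 6.09% and 3.37% of all expressed genes that were 2-fold higher at days 2, 4 and 6. The shares 2-fold lower were 1.83%, 2.11% and 2.1%. All 5 neuron markers were in the table and none was at 0 in any library. Their summed level was 31.6 to 82.3 FPKM in control and 126 to 148 FPKM in induced libraries, and those 2-fold higher numbered 2, 3 and 5 by day. Most of the control sum was Stmn2, which stood at 63.6, 61.2 and 19.1 FPKM in control and 86.7, 78.0 and 48.5 in induced cells. The 6 neural progenitor markers, none at 0, summed to 48.3 to 140 FPKM in control and 80.6 to 123 FPKM in induced libraries. Of these, Sox2 alone stood at 135, 35.5 and 32.8 FPKM in control and 66.7, 65.9 and 37.8 in induced cells. At days 2, 4 and 6, 1, 4 and 2 of these 6 were at least 2-fold higher, and 1 was 2-fold lower at day 2. The 6 visceral endoderm markers summed to 20.9 to 165 FPKM in control and 4.57 to 12.5 FPKM in induced libraries, with 2, 6 and 6 of them at least 2-fold lower. The 5 epiblast markers, none at 0, summed to 326 to 1642 FPKM in control and 264 to 654 FPKM in induced libraries, with 4, 3 and 0 of them at least 2-fold lower. The 8 feeder or fibroblast markers summed to 9.31 to 109 FPKM in control and 35.4 to 96.0 FPKM in induced libraries, with 1 at 0 in each day 6 library. Of these 8, 2, 2 and 0 were at least 2-fold higher and 0, 1 and 5 at least 2-fold lower. The 4 markers of nerve glia, where Oct6 is also known to act, summed to 2.72 to 7.21 FPKM in control and 4.08 to 7.64 FPKM in induced libraries, and none was 2-fold different on any day. In these bulk libraries more cells of a type and more RNA per cell cannot be told apart, and the part of cell composition in the differences of Pou3f3 and Pou3f4 was not tested.

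The peak list holds 7979 Oct6 peaks, each 133 bases wide, with the authors' score between 7.6 and 145.6 and a median of 11.4. The nearest peak to the Pou3f1 start site lay 441 bp upstream, with a score of 12.7. A further peak of the same score lay 6.76 kb downstream of the start, beyond the annotated end of the gene. The Pou3f4 start site had 1 peak 11.8 kb upstream (score 11.4), and that of Pou3f2 had 1 peak 18.3 kb upstream (score 10.1), both intergenic. The nearest peak to the Pou3f3 start site was 700.1 kb away, farther than for 91.5% of coding genes. Pou3f1, the gene of the precipitated factor, thus had a peak beside its start, and Pou3f3 had none within 500 kb.

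These peaks are printed because they are the peaks nearest to the start sites of Pou3f1, Pou3f2 and Pou3f4. They are assigned by distance alone. They are given on the plus strand of NCBIM37, 5′ to 3′. Capitals mark an octamer (ATGCAAAT, either strand) with at most 1 mismatch, a pair of ATGCAT copies 0 to 2 bases apart with at most 1 mismatch, or the homeodomain core TAATTA.
Pou3f1, 441 bp upstream, chr4:124334389-124334521: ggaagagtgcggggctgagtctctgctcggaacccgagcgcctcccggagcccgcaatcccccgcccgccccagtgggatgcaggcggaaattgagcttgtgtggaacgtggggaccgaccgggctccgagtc
Pou3f1, 6.76 kb downstream, chr4:124341590-124341722: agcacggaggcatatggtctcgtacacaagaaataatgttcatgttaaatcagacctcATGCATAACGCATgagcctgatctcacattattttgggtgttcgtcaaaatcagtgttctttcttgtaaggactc
Pou3f4, 11.8 kb upstream, chrX:107997879-107998011: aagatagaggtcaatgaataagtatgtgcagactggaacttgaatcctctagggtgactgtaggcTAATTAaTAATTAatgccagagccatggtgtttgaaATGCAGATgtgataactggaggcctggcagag
Pou3f2, 18.3 kb upstream, chr4:22433781-22433913: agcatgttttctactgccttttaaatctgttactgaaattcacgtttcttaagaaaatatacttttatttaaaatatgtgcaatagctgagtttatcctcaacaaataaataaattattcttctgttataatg

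The peak 441 bp upstream of Pou3f1 had a GC content of 69.2%, and no 8 bases of it came closer to the octamer than 3 mismatches. The peak 6.76 kb downstream held a pair of ATGCAT copies with 1 base between them and 1 mismatch, centred 2 bases from the middle of the peak. Such pairs, the form in which POU factors bind as dimers on the MORE element, were in 8.59% of the 7965 placed peaks and in 0.509% of 15929 flanking sequences of the same width. The Pou3f4 peak held TAATTA at 2 places, which 6.33% of peaks and 5.98% of flanks hold at least once. It also held an octamer with 1 mismatch, as did 34.3% of peaks and 17.1% of flanks. The Pou3f2 peak held none of these motifs. No exact octamer was found in any of these 4 peaks, against 4.19% of all peaks and 1.27% of flanks, and none held the SOX motif (ACAAAG or ACAATG), which stood in 16.1% of peaks and 17.9% of flanks. A match is a run of letters and not a measured site, and the pair and TAATTA were searched after the sequences had been seen.

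**Figure D3:**
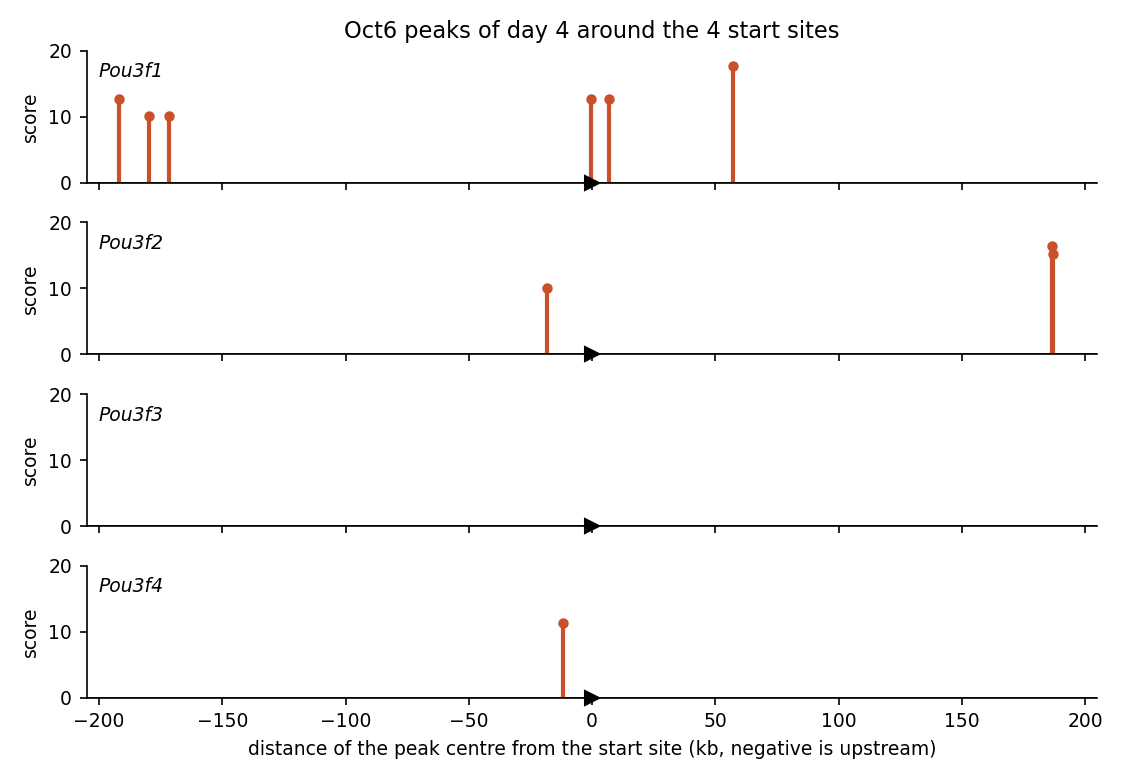
Oct6 peaks of day 4 around each start site (black arrowhead, pointing in the direction of transcription), with the distance of the peak centre in kb on the horizontal axis and the authors' score as height. Pou3f1 has peaks at 0.441 kb and 6.76 kb, Pou3f2 and Pou3f4 have 1 upstream peak each within 20 kb, and the Pou3f3 panel is empty.

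Within 5 kb of the start site, 1 of the 4 members had a peak, and 9.78% of 22225 coding genes did. Within 10 kb it was again 1 member, against 12.4% of coding genes. Pou3f1 had 2 peaks in that window, as 1.26% of coding genes did at least. Within 50 kb the numbers were 3 of 4 members and 31.0% of coding genes, within 100 kb 3 of 4 and 47.7%, and within 500 kb 3 of 4 and 87.2%. Of genes expressed in any library, 17.7% had a peak within 10 kb and 38.8% within 50 kb. A score of 12.7 is shared by peaks from rank 1697 of the list, and the Pou3f4 and Pou3f2 peaks stand from rank 2785 and rank 4686. The highest score within 100 kb of a member, 17.7, belongs to a peak 57.2 kb downstream of the Pou3f1 start, which lies 39 bp from the start of Sf3a3, a splicing factor gene. Sf3a3 stood at 78.5, 75 and 71.1 FPKM in control and 67.1, 73.6 and 74.5 in induced cells. Chromosome X carried 48 peaks, or 0.288 per Mb, against 3.0 per Mb over all placed chromosomes, and the Pou3f4 peak is 1 of these 48. The peaks were called on 1 ChIP library and 1 input, so no peak has a replicate check.

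No peak in the list lay in the 250 bases before any of the 4 start sites. These stretches are shown for Pou3f3 and Pou3f4, the relatives that were higher together in induced cells. They come from RefSeq's GRCm38.p6 sequence, matched to NCBIM37, and are written along the coding strand. Capitals mark CCAAT on either strand, the letters of the box that the factor NF-Y binds.
Pou3f3, chr1:42752363-42752612: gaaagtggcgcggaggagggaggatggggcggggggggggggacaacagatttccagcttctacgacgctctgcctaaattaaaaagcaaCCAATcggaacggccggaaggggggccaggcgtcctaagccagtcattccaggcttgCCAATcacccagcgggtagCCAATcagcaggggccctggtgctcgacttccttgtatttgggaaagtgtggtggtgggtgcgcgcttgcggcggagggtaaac
Pou3f4, chrX:108009468-108009717: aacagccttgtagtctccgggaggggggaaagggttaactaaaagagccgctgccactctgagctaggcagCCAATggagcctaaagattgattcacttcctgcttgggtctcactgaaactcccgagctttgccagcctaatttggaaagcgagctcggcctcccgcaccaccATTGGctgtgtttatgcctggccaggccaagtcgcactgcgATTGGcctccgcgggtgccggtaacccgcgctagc
Both held 3 CCAAT boxes. The same stretch of Pou3f1 also held 3 and that of Pou3f2 held 2. Of 32841 RefSeq promoters, 10.1% held at least 2 and 2.79% at least 3. The CCAAT search was made after the sequences had been seen, so these counts describe the 4 promoters and test nothing. None of the 4 held an octamer with at most 1 mismatch, as 16.6% of RefSeq promoters did.

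Genes around the members were read to see whether whole neighbourhoods differed. Of 16 expressed genes with a start within 500 kb of Pou3f1, 0 were 2-fold different between the arms on any day. Of all expressed genes, 9.72%, 6.09% and 3.37% were 2-fold higher at days 2, 4 and 6, and 1.83%, 2.11% and 2.1% lower. Among so few genes, a count of 0 does not set this neighbourhood apart from those shares. The closest of the 16, Utp11l, a ribosome assembly factor gene, stood at 38.2, 40.0 and 33.9 FPKM in control and 31.2, 33.5 and 31.4 in induced cells. Around Pou3f3, 5 neighbours were expressed. 2610017I09Rik (Pantr1), whose start lies 28.9 kb upstream of that of Pou3f3, was listed at 0 in control at day 2 and stood at 0.0780 and 0.0740 FPKM at days 4 and 6. In induced cells it stood at 5.49, 10.9 and 18.8 FPKM, above Pou3f3 itself. It was the only expressed neighbour of Pou3f3 with a 2-fold difference on all 3 days, and 1.03% of expressed genes were 2-fold higher on all 3. Fhl2, a LIM domain cofactor 468 kb away, differed by 1.54 at day 2, by -0.24 at day 4 and by -0.66 at day 6. Mrps9, a mitochondrial ribosomal protein gene 155 kb away, differed by -0.12, -0.05 and -0.02. Fbxl4, a mitochondrial F-box protein gene and the only expressed neighbour of Pou3f2, differed by 1.16, 0.63 and 0.64. Quantile normalisation brought the day 2 value to 0.75. No measured neighbour of Pou3f4 reached 1 FPKM. Strand was not stated for these libraries, so overlapping transcripts could not be separated.

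**Figure D4:**
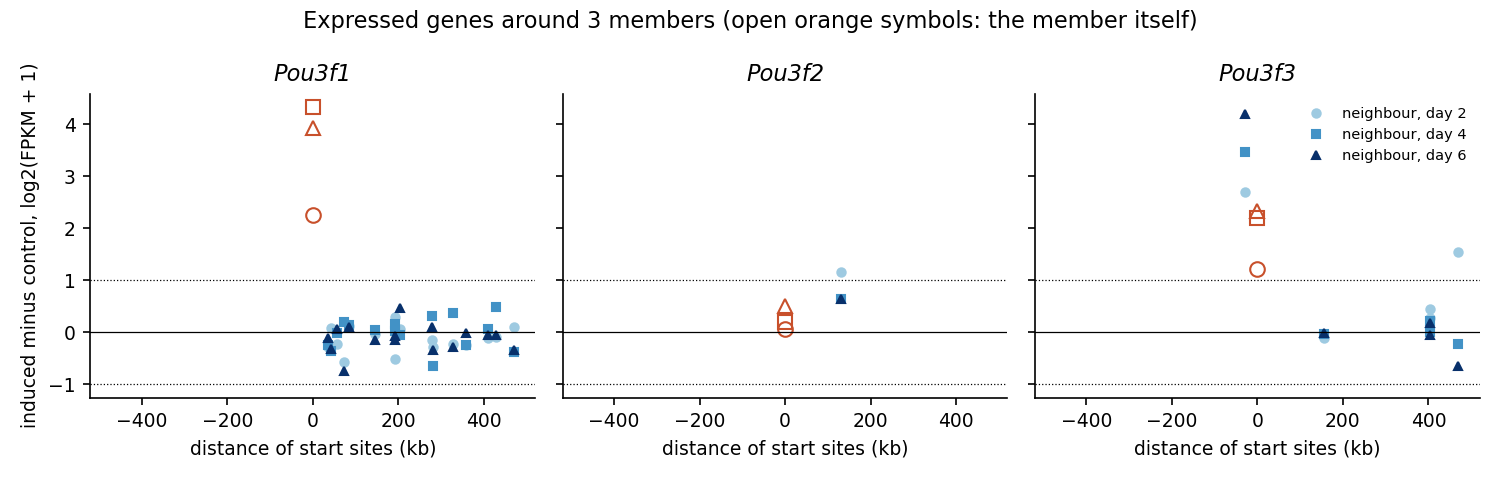
Induced minus control difference of log2(FPKM + 1) for expressed genes by the distance of their start from that of Pou3f1, Pou3f2 or Pou3f3 (kb, negative is upstream of the member), with symbols for days 2, 4 and 6 and open orange symbols for the member. Around Pou3f1 no neighbour passes the dotted 2-fold lines, while near Pou3f3 the points of 2610017I09Rik lie between 2.70 and 4.21.

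Of 12 other genes with a POU symbol, among them the cofactor gene Pou2af1, 7 reached 1 FPKM in any library. Those expressed at days 2, 4 and 6 numbered 7, 5 and 5. Those at least 2-fold higher numbered 2, 2 and 3, beside 9.72%, 6.09% and 3.37% of all expressed genes. Pou5f1 was 2-fold lower at day 2. Medians over those expressed on the day were 0.53, 0.99 and 1.04, against 0.17, 0.10 and 0.06 over all expressed genes. Pou6f1, a class VI factor of the nervous system, stood at 0.590, 2.93 and 1.26 FPKM in control and 7.62, 6.79 and 5.80 in induced cells. The arms did not overlap, and the difference was below 2-fold at day 4 on the log2(FPKM + 1) scale (0.99). Pou4f1, the gene of Brn3a in sensory neurons, stood at 2.12, 1.05 and 0.854 FPKM in control and 3.47, 4.14 and 2.94 in induced cells, again without overlap. Pou4f2, the gene of Brn3b in retinal ganglion cells, stood at 1.21, 0.0938 and 0.0406 FPKM in control and 2.40, 1.52 and 0.791 in induced cells, where the arms overlapped. Pou2f3, a factor of skin and tuft cells, differed by 1.07, 0.54 and 0.74, and Pou2f2, the gene of Oct2 in B cells, by -0.56, 0.03 and 1.04. The differences of Pou2f2 and Pou4f1 at day 6 and of Pou2f3 at day 2 fell short of 2-fold after quantile normalisation, and that of Pou2f2 at day 6 also under median ratio scaling (0.99). Pou2f2 at day 2 became 2-fold lower after quantile normalisation (-1.02). Pou2f1, the gene of the widely expressed Oct1, differed by 0.53, 0.17 and 0.02, and its day 6 value changed sign with quantile normalisation (-0.06) and with median ratio scaling (-0.04). None of the 7 passed limma after adjustment over all genes (smallest adjusted p 0.124, for Pou6f1), while 4 were higher at an unadjusted limma p under 0.05, beside 16.3% of all genes tested.

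**Figure D5:**
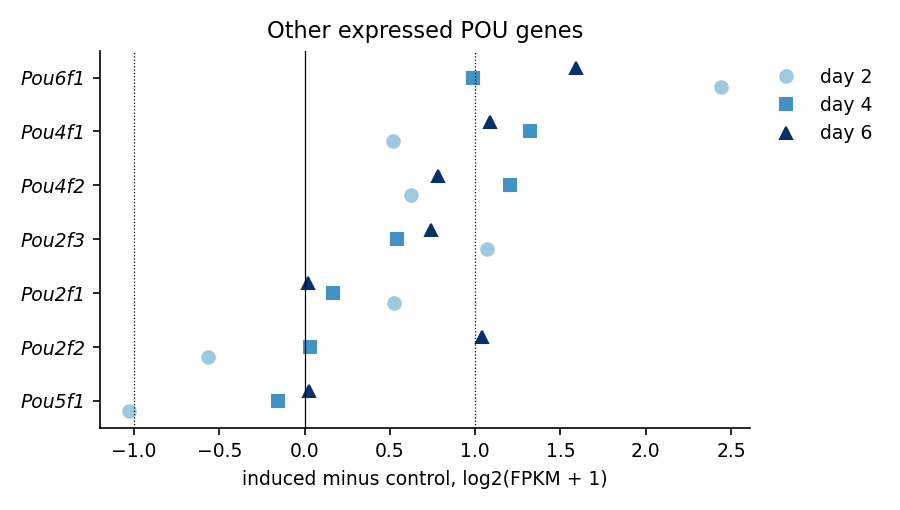
Induced minus control difference of log2(FPKM + 1) (horizontal axis) for the 7 other POU genes that reached 1 FPKM, with circles, squares and triangles for days 2, 4 and 6 and dotted lines at a 2-fold difference. Pou6f1 at day 2 stands farthest right at 2.44 and Pou5f1 at day 2 farthest left at -1.03.

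Of 11 SOX factors that can pair with POU factors, 10 reached 1 FPKM, with 7, 8 and 9 expressed at days 2, 4 and 6. The 2-fold higher ones numbered 2, 3 and 0, beside 9.72%, 6.09% and 3.37% of all expressed genes. Their medians were 0.62, 0.81 and 0.20, against 0.17, 0.10 and 0.06. Sox21, a SOXB2 factor of neural precursors, stood at 0.0853, 0.422 and 3.05 FPKM in control and 22.6, 9.64 and 4.05 in induced cells. Its close relative Sox14 stood at 0.123, 0.176 and 0.232 FPKM in control and 1.88, 2.70 and 0.847 in induced cells. Sox2, the SOXB1 partner of POU factors in pluripotent and neural cells, differed by -1.01, 0.88 and 0.20. The first of these fell short of 2-fold after quantile normalisation (-0.88). None of the 10 passed limma after adjustment (smallest adjusted p 0.144), and 3 were higher at an unadjusted limma p under 0.05, as 16.3% of all genes were.

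Of 11 genes described as targets of class III POU factors, 9 reached 1 FPKM, with 5, 7 and 8 expressed at days 2, 4 and 6. The 2-fold higher ones numbered 1, 3 and 4, beside 9.72%, 6.09% and 3.37% of all expressed genes, and 1, Sox2 again, was 2-fold lower at day 2. Medians were 0.77, 0.88 and 1.02, against 0.17, 0.10 and 0.06. Fabp7, whose brain enhancer binds POU factors, stood at 0.418, 2.03 and 2.31 FPKM in control and 4.21, 16.6 and 58.2 in induced cells without overlap of the arms. Nes stood at 2.75, 13.8 and 8.50 FPKM in control and 5.80, 9.20 and 11 in induced cells, so that the arms overlapped. Dll1, a Notch ligand, differed by -0.83 at day 2 and 1.08 at day 6, which quantile normalisation made -1.22 and 0.97, on the other side of the 2-fold size. Egr2, which Oct6 activates in Schwann cells, stood at 0.256, 0.272 and 0.732 FPKM in control and 0.584, 1.93 and 0.771 in induced cells. It reached 1 FPKM only in the induced library of day 4. Crh, the hypothalamic hormone gene linked to Brn2, was below 0.5 FPKM in every library. None of the 9 passed limma after adjustment (smallest adjusted p 0.104, for Fabp7), and 3 were higher at an unadjusted limma p under 0.05, again beside 16.3% of all genes.

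Of 10 factors used with Brn2 to make neurons from other cells, 7 reached 1 FPKM, with 3, 4 and 5 expressed at days 2, 4 and 6. The 2-fold higher ones numbered 2, 2 and 4, beside 9.72%, 6.09% and 3.37% of all expressed genes, and medians were 1.34, 1.28 and 1.73, against 0.17, 0.10 and 0.06. At day 6, Neurog2, a proneural bHLH factor, differed by 1.08, and by 0.94 after quantile normalisation, short of 2-fold. Myt1l, a zinc finger factor of neurons, stayed between 0.0181 and 0.137 FPKM. Its relative Myt1 reached 2.47 FPKM in induced cells at day 6 against 0.0456 in control. Neurod1, a bHLH factor of differentiating neurons, was highest in induced cells at day 2, with 22.7 against 4.19 FPKM, and stood at 0.430 against 0.420 FPKM at day 6. None of the 7 passed limma after adjustment (smallest adjusted p 0.175), and 4 were higher at an unadjusted limma p under 0.05, beside the same 16.3%.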

How the data were processed

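Reads were handled with HOMER, Cuffdiff, Cufflinks 1.3.0 and TopHat 1.4.1 on mm9, per the submitters' processing notes, which give no roles. The deposited FPKM values, made by the authors, are fragments scaled to transcript length and mapped fragments. The deposited peak score is the authors' own value, used only to describe and rank peaks within the list. The members and gene lists were chosen with earlier results of these data known. Values were taken as log2(FPKM + 1). A gene counted as expressed from 1 FPKM and as changed from a log2 difference of 1.

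limma 3.58.1 in R 4.3.3 (eBayes with trend, Benjamini-Hochberg adjustment, 2-sided) tested all 13661 genes with 1 FPKM or more in any library, with day as a block, and in a second fit the interaction of arm and numeric day. Only the rows of named genes are printed. The steps were tested on simulated data.

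Named were the members, members of the fixed lists, expressed genes within 500 kb, peaks within 100 kb and, for each expressed member, the 5 genes of highest Pearson r. Some list members are not reported here by name, though the list counts include them. Map2 was read under its older symbol Mtap2. Heart markers summed to 2.02 to 186 FPKM in control and 2.96 to 9.08 in induced libraries, and blood markers to 0.121 to 1524 and 0.232 to 151.

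Depth was estimated from the most frequent step of values under 0.3 FPKM, taken between libraries and times the GENCODE length, at 23600000 to 51300000 fragments per library. Coordinates are NCBIM37 with GENCODE vM1, and 14 peaks on unplaced contigs were left out. Coding sequences were aligned with mafft 7.526. The far end of each flanking sequence lay 500 bp from its peak. Protein sequences were not used here. Scripts ran in Python 3.11.15 with pysam 0.24.0, matplotlib 3.10.9, scipy 1.17.1, pandas 2.3.3 and numpy 2.4.6.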

Additional observations from a re-analysis of the deposited data

How the results depend on the processing

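Among 48 within-day differences of the members under other pseudocounts, median ratio scaling and quantile normalisation, 45 kept their direction and their call, which needs 1 FPKM as well as 2-fold; Pou3f2, under 1 FPKM, passed 2-fold at days 4 and 6 with a pseudocount of 0.1 (1.3 and 1.6). Pou3f4 at day 2 passed that size with a pseudocount of 0.1 (2.27) or 0.5 (1.4), and Pou3f2 at day 2 turned to -0.039 after quantile normalisation. In limma, Pou3f1, Pou3f3 and Pou3f4 stayed higher and short of the adjusted threshold under all alternatives run, with estimates of 3.10 to 4.13, 1.71 to 3.69 and 1.27 to 2.71. Without the day as a replicate block the estimates were 3.51, 1.91 and 1.49, with limma adjusted p of 0.360, 0.185 and 0.319. Leaving out 1 day gave 3.10 to 4.13, 1.71 to 2.26 and 1.27 to 1.76, with adjusted p between 0.0729 and 0.624 and 0 to 0 genes passing. The 3 genes of the table that passed became 1 with a pseudocount of 0.1, 7 after quantile normalisation, 0 with no filter on low values and 7 with a filter of 1 FPKM in at least 3 libraries; the cause was not tested. Members with a peak numbered 3 within 50 kb and 3 within 100 kb. Of the 5 peaks within 100 kb, 1 had an octamer with 1 mismatch, 1 a pair of ATGCAT and 1 TAATTA, the latter 2 searches being chosen after seeing the data. Depth limits Pou3f2, whose values outside day 6 of the induced arm rest on an estimated 0 to 8.44 fragments. It also limits the control values of Pou3f4, at 8.03 to 18.2 estimated fragments, and of Pou3f3 at day 4, at 7.58.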
